A study of Drosophila melanogaster with 2 samples.

Results

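The chaperone genes described here are Hsp83, Hsp68, Hsc70-3, Hsc70-4, Hsc70-5, Hsp60A and DnaJ-1, together with Hsf, which encodes the transcription factor of the heat shock response. The 8 genes were chosen by name from the 13968 protein-coding genes of the annotation, and a gene was counted as covered when a peak summit lay inside its span or within 1 kb of either end. Peaks came from ChIP-seq on whole Drosophila melanogaster embryos aged 0 to 24 h, of a transgenic strain in which the homeodomain protein H2.0 carries an enhanced green fluorescent protein (eGFP) tag that was precipitated with an antibody against GFP. The labels give a single group of 2 biological replicates, with no heat shock, no second stage and no second genotype. "Stress-induced" and "constitutive" therefore name what the genes are known for in flies and not a treatment of these embryos. A summit marks a site of deposited signal, and binding of H2.0 itself was not shown, since no control library entered the comparison. Whole embryos mix all tissues, so a signal shared by many cells and a stronger signal in few cells cannot be told apart.

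Molecular chaperones bind unfolded proteins and either hold them or help them fold with the energy of ATP. Hsp83 is the fly cytosolic Hsp90, which is abundant without stress and rises further on heat shock. Hsp68 is a strictly stress-induced relative of Hsp70, and DnaJ-1 is a J-domain protein that hands substrates to Hsp70 proteins and is raised by heat. The Hsc70 genes encode the constitutive Hsp70 proteins of separate compartments, with Hsc70-3 (BiP) in the endoplasmic reticulum, Hsc70-4 in the cytosol and Hsc70-5 (mortalin) in mitochondria. Hsp60A encodes the mitochondrial chaperonin. Hsf binds heat shock elements, which are inverted repeats of short GAA units, and recruits the transcription machinery to heat shock promoters. H2.0 is known from the visceral musculature of the embryo.

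Of the 8 genes, 4 were covered in the pooled thresholded list, namely Hsp83, Hsc70-4, Hsc70-5 and Hsp60A, and Hsp68, DnaJ-1, Hsc70-3 and Hsf were not. Among all protein-coding genes 28.1% were covered in that list, and among the 3737 genes whose span was as long as those of the members the share was 30.1%. The list of replicate 1 covered 3 of the 8 genes, against 20.9% of all genes, and that of replicate 2 covered 3, against 22.6%. The 3 genes were Hsp83, Hsc70-4 and Hsc70-5 in both lists, and 17.7% of all genes were covered in both. By class, 2 of the 3 constitutive Hsc70 genes and 1 of the 3 stress-induced genes were covered in each of these lists. A pooled summit within 500 bp of a transcription start site (TSS) of the gene's own was found for 4 of the 8 members, the same 4 genes, and for 18.2% of all protein-coding genes. With 8 genes these counts are descriptions, and no test of the classes was made.

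Sequences at or next to member summits are shown first, because the sites differ in base composition and in the elements they hold. All are read from the reference sequence of the dm6 assembly, 5′ to 3′. For the stronger Hsp83 summit, in an intron, the 101 bases at 3L:3194204-3194304 on the plus strand are given with the homeodomain core TAATTA in capitals. For the Hsp83 promoter peak, 30 bases at 3L:3193137-3193166 on the plus strand are given with a heat shock element of 2 units in capitals. This stretch lies downstream of the summit at 3193117 and does not contain it. The element begins 31 bp downstream of the summit, at the last base of the pooled peak (3193148). It lies inside the replicate 1 peak, which ends at 3193246, and past the replicate 2 peak, which ends at 3193131. The Hsc70-4 window is 3R:15242453-15242553 on the plus strand, with its heat shock element in capitals, and the Hsp60A window is X:11108226-11108326 on the plus strand, where none of the motifs searched occurred.
Hsp83 intron summit: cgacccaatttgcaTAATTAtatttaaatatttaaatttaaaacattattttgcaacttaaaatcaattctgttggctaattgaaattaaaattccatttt
Hsp83 promoter element: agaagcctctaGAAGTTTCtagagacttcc
Hsc70-4 summit: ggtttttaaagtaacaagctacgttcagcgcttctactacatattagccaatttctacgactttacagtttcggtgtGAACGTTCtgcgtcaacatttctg
Hsp60A summit: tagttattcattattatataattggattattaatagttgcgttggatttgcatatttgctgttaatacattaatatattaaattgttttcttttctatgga
Of these windows of 50 bp on both sides of the summit, the Hsp83 intron and Hsp60A windows were poor in G and C, at 19.8% and 20.8%, against a median of 33.7% and quartiles of 27.7% and 41.6% over the 4565 pooled summits on the chromosome arms. The Hsp83 promoter window had 47.5% G and C, the Hsc70-4 window 39.6% and the Hsc70-5 window 32.7%.

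Among the stress-induced genes, Hsp83 (FBgn0001233, 3L 3192969 to 3197059, plus strand) was the covered one. Its highest peak lay at 3194183 to 3194334 with the summit at 3194254, in an intron and 1038 bp downstream of the nearer of the gene's 2 TSS. The signal, a value that the peak caller gave and that is not scaled between lists, was 271.4 in the pooled list, 125.5 in replicate 1 and 146.5 in replicate 2. These values stood at the 90.2, 81.4 and 88.9 percentile of their lists. The summits of the replicates lay 11 bp apart. A peak at the promoter, 3193049 to 3193148 with the summit at 3193117, had a signal of 229.1 in the pooled list, 121.8 in replicate 1 and 113.7 in replicate 2. The promoter summit lay 99 bp upstream of the TSS at 3193216 and 148 bp downstream of the TSS at 3192969, in the 5′ UTR of the longer transcript. Both replicates thus listed both Hsp83 peaks past the threshold, and the intron peak was the higher in each list, by a small margin in replicate 1. The summits of the 2 peaks lay 1137 bp apart in the pooled list.

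The log2 ratio of replicate 2 to replicate 1 was 0.22 at the intron peak and -0.10 at the promoter peak, and over the 2248 peaks shared by the replicates the median of this ratio was -0.13 with an SD of 0.48. A weaker pooled summit at 3197680, with a signal of 53.9 at the 6.37 percentile, lay 621 bp beyond the end of Hsp83 and 49 bp upstream of the TSS of CG14966. It made Hsp83 one of the 2.72% of protein-coding genes with 3 or more pooled summits. It was in neither replicate's thresholded list, and its ranked signals were 24.8 in replicate 1 and 31.8 in replicate 2, with irreproducible discovery rates (IDR) of 0.351 and 0.0647 against the threshold of 0.01.

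**Figure D1:**
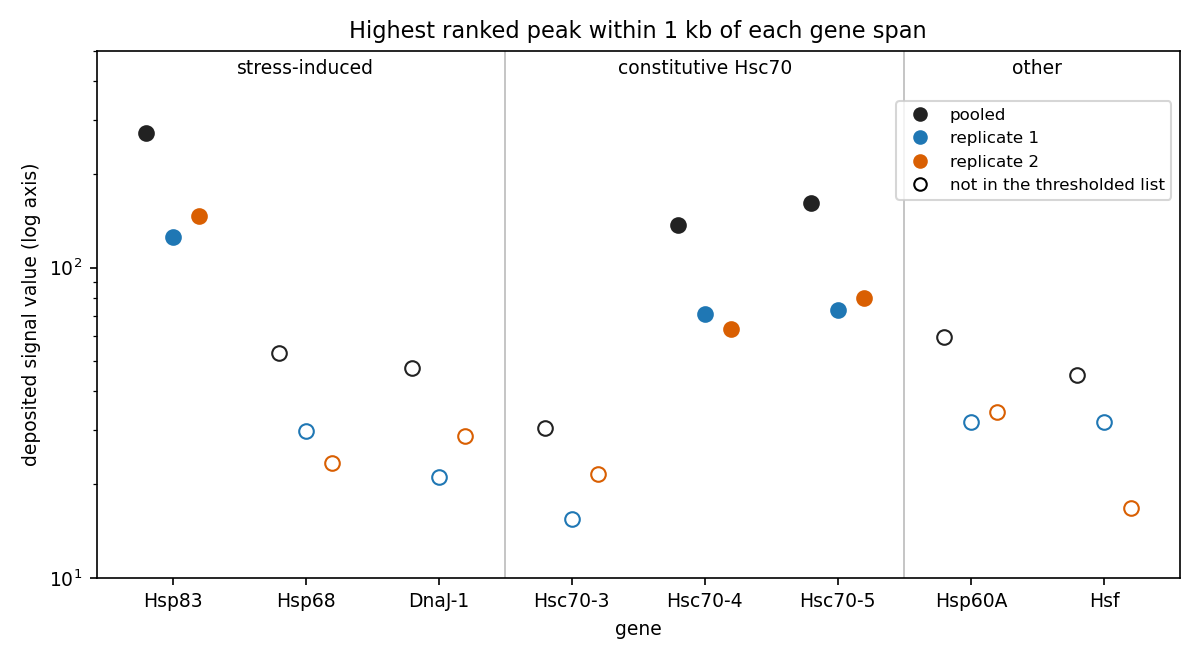
Signal of the highest ranked peak within 1 kb of each gene span (vertical axis, deposited signal value on a log scale) for the 8 genes on the horizontal axis, in the pooled list and each replicate list. Filled points are in the thresholded list, as for Hsp83, Hsc70-4 and Hsc70-5 in all 3 lists, and open points are not; the open pooled point of Hsp60A (59.6) is a peak other than its thresholded one (55.5).

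Hsp68 (FBgn0001230, 3R 24055080 to 24057310, minus strand) had no summit in any thresholded list, and the nearest pooled summit lay 17285 bp from its span, 65 bp upstream of the TSS of Miro. Peaks below the threshold are recorded in the ranked lists, which hold 134701 pooled peaks on the arms with a median signal of 19.0. Within 500 bp of the Hsp68 TSS the ranked pooled list gave a peak of 38.0 (IDR 0.781), replicate 1 gave none, and replicate 2 gave one of 19.8 (IDR 0.824). The highest ranked pooled peak anywhere within 1 kb of the gene reached 53.0, with a score of 719 and an IDR of 0.0185. That peak lay 1801 bp downstream of the TSS, and its score was under the minimum of 830 that the thresholded lists hold.

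DnaJ-1 (FBgn0263106, 3L 5750029 to 5752189, minus strand) came nearer to the threshold. Its ranked pooled summit 37 bp downstream of the TSS had a signal of 47.6, a score of 777 and an IDR of 0.0134. The replicates' ranked peaks near the TSS had signals of 20.2 (IDR 0.702) and 27.5 (IDR 0.0486). The nearest thresholded pooled summit lay 19067 bp away, at scny. DnaJ-1 is thus a gene just outside the threshold in the pooled list, and neither replicate listed it. The highest Hsp68 peak, away from its TSS, had a higher signal (53.0) and a somewhat higher IDR (0.0185).

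Among the constitutive genes, Hsc70-4 (FBgn0266599, 3R 15242687 to 15246614, plus strand) had a pooled peak at 15242355 to 15242650 with its summit at 15242503, in intergenic sequence 184 bp upstream of the most upstream of its 6 TSS. The signal was 136.7 in the pooled list, 70.6 in replicate 1 and 63.4 in replicate 2, at the 69.6, 52.6 and 51.6 percentile. The summits of the replicates lay 7 bp apart, against a median gap of 17 bp over the shared peaks, and the log2 ratio of the replicates was -0.16. The Hsc70-4 peak was thus near the middle of each replicate's list, and lower within every list than either of the main Hsp83 peaks.

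Hsc70-5 (FBgn0001220, 2R 14252598 to 14256192, minus strand) had a pooled summit at 14256175, in the 5′ UTR 17 bp downstream of its TSS. The signal was 161.8 in the pooled list, 73.2 in replicate 1 and 79.7 in replicate 2, at the 76.6, 55.0 and 65.7 percentile. The log2 ratio of the replicates was 0.12, and their summits lay 34 bp apart. Its pooled signal was above that of Hsc70-4, as were both replicate signals, and each replicate's values for the Hsc70-4 and Hsc70-5 peaks were under those of both Hsp83 peaks.

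Hsc70-3 (FBgn0001218, X 11801696 to 11807117, minus strand, 4 TSS) was the constitutive gene with no summit in any thresholded list. The ranked signal within 500 bp of its TSS was 30.5 in the pooled list, 15.5 in replicate 1 and 21.5 in replicate 2, with IDR values of 0.766, 0.705 and 0.761. The nearest pooled summit, of signal 316.8, lay 11496 bp away at rudhira. The 3 constitutive genes therefore ran from 15.5 to 73.2 in replicate 1 and from 21.5 to 79.7 in replicate 2 by their highest ranked peak near a TSS. The stress-induced genes ran from no ranked peak (Hsp68) to 121.8 (Hsp83) in replicate 1 and from 19.8 to 113.7 in replicate 2. The ranges of the constitutive and the stress-induced genes overlapped in both replicates, and each class held both covered and uncovered genes.

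**Figure D2:**
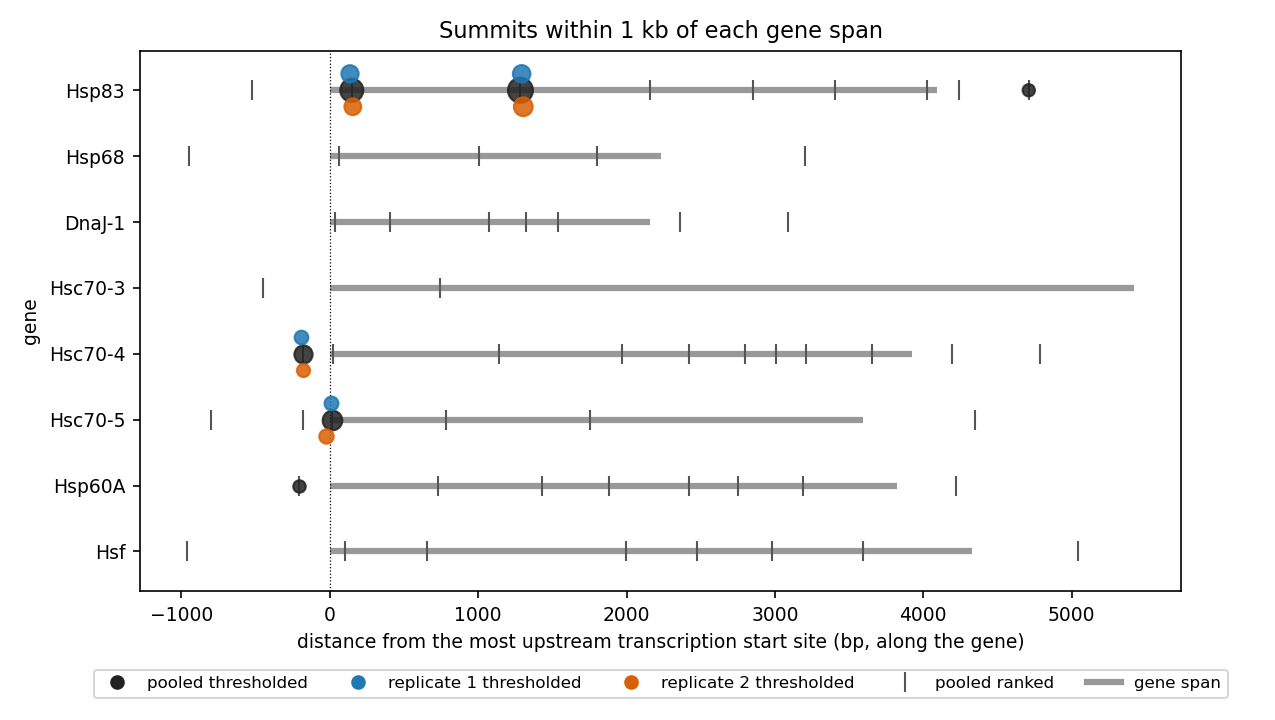
Summits along the 8 genes by distance from the most upstream TSS (horizontal axis, bp along the gene), with the gene span as a grey bar, pooled ranked summits as ticks and thresholded summits as dots whose area grows with the signal. The thresholded dots of Hsc70-4, Hsc70-5 and Hsp60A sit at the start of the gene, those of Hsp83 at the start, in the intron and past the end, and Hsp68, DnaJ-1, Hsc70-3 and Hsf have ticks only.

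Hsp60A (FBgn0015245, X 11108482 to 11112308, plus strand) was covered in the pooled list by a weak peak. Its summit at 11108276 lay 206 bp upstream of the TSS and had a signal of 55.5, at the 8.17 percentile, with a score of 922 and a q-value of 0.293. Neither replicate's thresholded list held it, and the replicates' ranked signals were 27.0 (IDR 0.835) and 34.3 (IDR 0.307). The pooled q-values of the main peaks at Hsp83, Hsc70-4 and Hsc70-5 were between 0.00408 and 0.00598. The Hsp60A peak therefore stands in the pooled list by its IDR and not by its q-value, as does the third summit at Hsp83, whose q-value was 0.335. Another thresholded list of both replicates, labelled conservative, added a second Hsp60A summit at 11109212, in an intron. Its signal was 59.6, at the 11.6 percentile of that list, with a q-value of 0.197. In the pooled ranked list the IDR of this summit was 0.170, and neither replicate's thresholded list held it.

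Hsf (FBgn0001222, 2R 18130303 to 18134634, minus strand) was not covered in any thresholded list. Its ranked peak near the TSS had the lowest signal of the 8 genes in the pooled list, 15.4, and signals of 9.07 in replicate 1 and 6.69 in replicate 2. The highest ranked pooled peak within 1 kb of the gene, of signal 45.03 and IDR 0.0562, lay 2472 bp downstream of the TSS. The nearest thresholded pooled summit was 4444 bp away, 80 bp upstream of the TSS of stau.

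The promoters of the members were searched on both strands, from 250 bp before to 50 bp after each TSS, for heat shock elements of 2 units (GAANNTTC or TTCNNGAA), for 3 units in a row, for the TATA box (TATAAA), the DNA replication-related element (TATCGATA), the GAGA element (GAGAG), the homeodomain core (TAATTA) and a core of the factor M1BP (GGTCACACT). The motifs do not contain one another, but a heat shock element of 3 units is also counted as elements of 2 units. At the most upstream TSS, a heat shock element of 2 units occurred in 4 of 8 members (Hsp68, DnaJ-1, Hsc70-3 and Hsc70-4), and in 15.9% of the promoters of all protein-coding genes. With all annotated TSS of the members searched, so that genes with several TSS had several windows, Hsp83 and Hsp60A were added. Elements of 3 units occurred at the most upstream TSS of 1 member (Hsp68) and in 0.430% of all promoters. A downstream TSS added Hsc70-4, with no such share beside it. The sequence TATAAA, at any position of the window, was found in 6 of 8 members at the most upstream TSS, against 45.8% of all promoters. It began 28 bp before that TSS at Hsp68 and 27 bp before it at Hsc70-4. At Hsp83 it began 148 bp before, at Hsp60A 117 bp, and at Hsc70-5 131 and 55 bp. At DnaJ-1 it began 176 and 137 bp before and 22 bp after the TSS. At the downstream Hsp83 TSS at 3193216, the one nearest its promoter summit, another TATAAA match began 30 bp before the TSS. A match is therefore not by itself a TATA box at the usual place. At the most upstream TSS the DNA replication-related element occurred in 2 members (Hsp83 and DnaJ-1, 9.36% of all promoters). The homeodomain core occurred in 2 (Hsp83 and Hsc70-3, 20.4%), the GAGA element in 1 (Hsc70-3, 29.7%) and the M1BP core in 0 (6.04%).

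The uncovered gene Hsp68 had the most heat shock elements of the 8 genes at its most upstream TSS, with 6 matches of 2 units between 182 and 53 bp before the TSS, 4 of which overlapped to form 3 elements of 3 units. The 200 bases before its TSS, at 3R:24057311-24057510 on the minus strand, are shown with heat shock elements and the TATA box in capitals, the latter starting 28 bp before the TSS. The 100 bases before the TSS of DnaJ-1, at 3L:5752190-5752289 on the minus strand, are shown with the TATCGATA match in capitals, which starts 72 bp before the TSS; its heat shock element starts 7 bp before the TSS and runs past the end of the printed bases.
Hsp68 upstream: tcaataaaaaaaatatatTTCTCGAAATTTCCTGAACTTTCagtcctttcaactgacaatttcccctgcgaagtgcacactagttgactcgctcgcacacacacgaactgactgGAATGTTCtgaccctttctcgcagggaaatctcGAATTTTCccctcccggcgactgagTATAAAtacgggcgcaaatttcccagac
DnaJ-1 upstream: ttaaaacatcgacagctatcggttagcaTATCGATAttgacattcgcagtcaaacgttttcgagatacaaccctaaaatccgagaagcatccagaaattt
Neither sequence lay under a thresholded peak in any list.

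Of the 6 pooled summits counted for the members, 2 had a heat shock element of 2 units within 50 bp, at the Hsp83 promoter and at Hsc70-4, and 5.37% of all pooled summits had one. At Hsp83 the element began 31 bp downstream of the summit and 68 bp upstream of the nearer TSS. At Hsc70-4 it began 27 bp downstream of the summit and 157 bp upstream of the TSS. The homeodomain core occurred at 1 member summit, 36 bp before the Hsp83 intron summit, and at 9.24% of all pooled summits. These matches are letters in the reference sequence, and nothing is drawn from them about which factor was there.

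**Figure D3:**
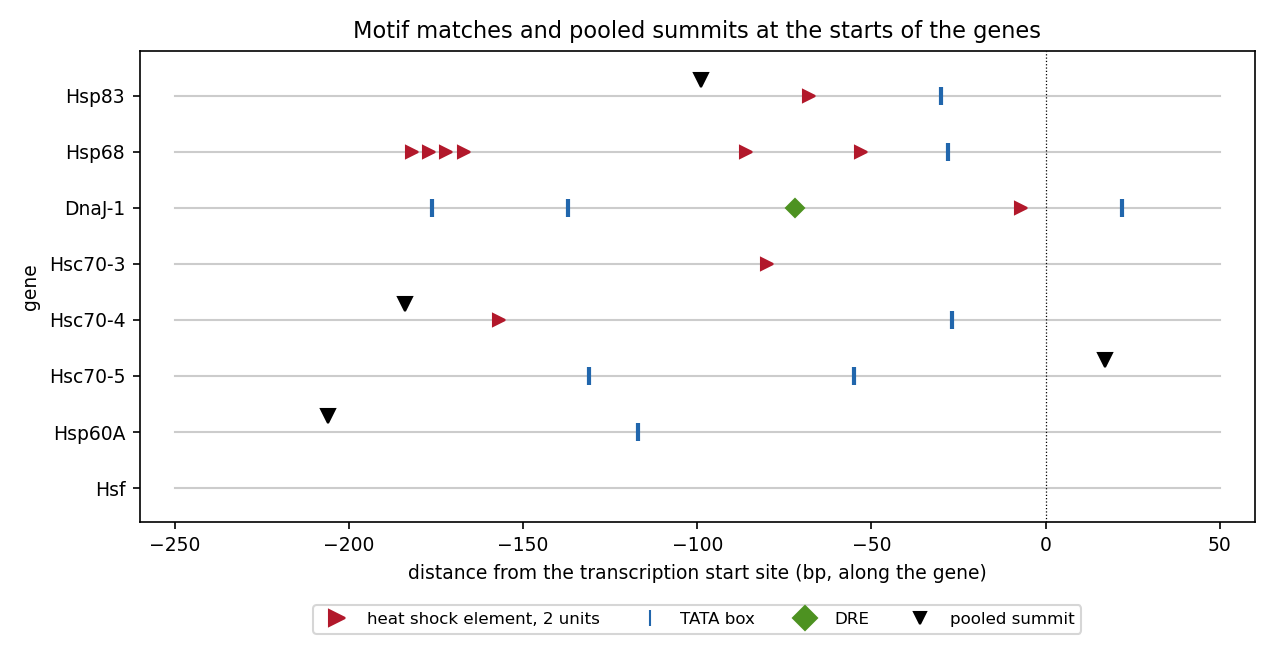
Motif matches (first base) and pooled summits by distance from the TSS (horizontal axis, bp along the gene) for the TSS nearest to the pooled summit, or the most upstream TSS where a gene has none. Hsp68 has 6 heat shock elements and no pooled summit, while at Hsp83 and Hsc70-4 the summit (black triangle) lies just upstream of an element.

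A wider list of 46 chaperone names, drawn up by family, had 42 genes in the annotation. Of these, 14 had a pooled summit within 1 kb (33.3%), near the 28.1% of all protein-coding genes. Of the 42 genes, 9 were covered in replicate 1, 13 in replicate 2 and 8 in both. The shares of all protein-coding genes were 20.9%, 22.6% and 17.7%. By family the pooled list covered 0 of 8 Hsp70 genes, 4 of 9 genes of the Hsp90 family and its co-chaperones, 5 of 8 J-protein genes, 4 of 12 chaperonin genes and 1 of 5 nucleotide exchange and other factors. The summit was nearest to the gene's own TSS in 7 of the 14, and no share of all genes was worked out beside this count. In the other 7 (CCT3, CCT5, CCT8, CG5504, DnaJ-H, Trap1 and unc-45) the nearest protein-coding TSS was that of another gene.

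The J-protein gene mrj had the highest signal of the wider list. Its peak, 317 bp upstream of a TSS of its own, had a signal of 485.5 in the pooled list, 228.0 in replicate 1 and 252.0 in replicate 2. CG11267, the RefSeq synonym of which is Hsp10 (the co-chaperonin that closes the Hsp60 cage), had a summit 134 bp upstream of its TSS with signals of 272.7, 154.4 and 110.3. The partner gene Hsp60A, as given above, had 55.5 in the pooled list and no thresholded peak in either replicate. The peak counted for CG5504, a mitochondrial J-protein gene, reached 475.1 but lay 74 bp upstream of the TSS of Alg3. The stv gene, which encodes a co-chaperone of the BAG family, had 170.5 at a summit 620 bp upstream.

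Among genes of the endoplasmic reticulum, P58IPK, a J-protein gene, had a summit 20 bp upstream of its TSS with signals of 110.2, 55.8 in replicate 1 and 51.9 in replicate 2. Gp93, the Hsp90 of that compartment, had 102.5 in the pooled list and 51.3 in replicate 2 and was not in the list of replicate 1. Hsc70-3, the Hsp70 of the same compartment, had no thresholded peak. CG1416, whose RefSeq synonym is Aha1, an activator of Hsp90, had 81.3 at a summit 69 bp upstream of its TSS. Further pooled signals were 133.7 for DnaJ-H, 109.7 for CCT3, 108.0 for CCT8, 103.5 for Trap1 and 58.6 for unc-45, each nearer to a neighbour's TSS. Hsp83, at 271.4, was thus close to CG11267 within the pooled list, and the Hsc70-4 and Hsc70-5 peaks lay between stv and DnaJ-H.

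**Figure D4:**
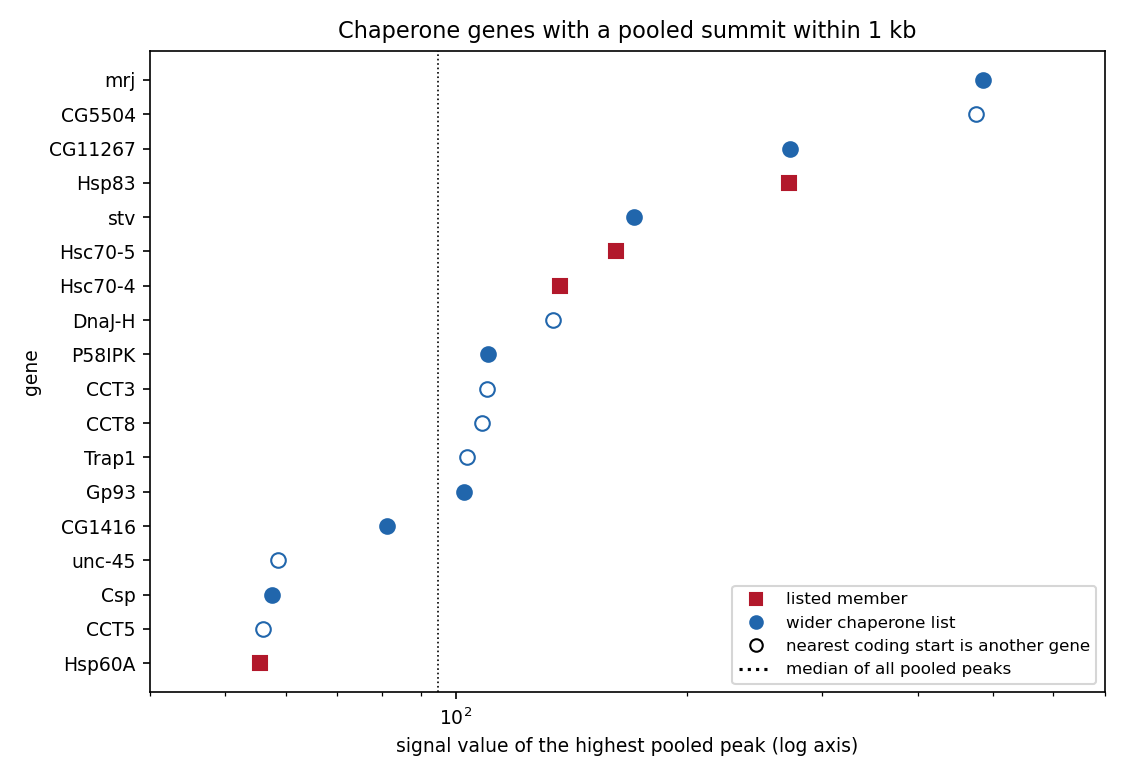
Highest pooled signal (horizontal axis, log scale) of each member (squares) and wider-list gene (circles) with a pooled summit within 1 kb. Open symbols mark peaks whose nearest protein-coding TSS belongs to another gene, and the dotted line is the median of all pooled peaks (94.6), which Hsp83, Hsc70-5 and Hsc70-4 exceed and Hsp60A does not.

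The count of 0 among Hsp70 genes depends on peaks that the thresholded lists leave out. The ranked pooled list holds a peak at the Hsp70Ba promoter, with its summit 85 bp upstream of the TSS, of signal 100.9 and score 1000, and the thresholded list does not hold it. In replicate 1 the ranked signal there was 23.8 with a score of 32, and in replicate 2 it was 71.3 with a score of 1000. The 6 heat-inducible Hsp70 copies are nearly identical, so that reads from one cannot be assigned with certainty to it, and the value at any single copy is uncertain.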

How the data were processed

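H2.0-eGFP ChIP-seq on whole embryos gave 2 biological replicates, and groups and replicate numbers were taken from the labels. The deposited peak lists (build dm6, per the labels) were made for each replicate and for both together, ranked and thresholded. The deposited signal is the peak caller's value per peak. The deposited score encodes the IDR, and the thresholded lists held scores of 830 or more, an IDR of 0.01. The authors gave each peak a q-value as its −log10, and a further deposited column of the ranked lists gives the global IDR on the −log10 scale. The aligner and peak caller are not named in the labels or headers. No reads were used, so depth is unknown and no counting interval is given.

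Summits were placed on Ensembl release 115 genes with Python 3.11.15, pandas 2.3.3 and pysam 0.24.0; the RefSeq coordinates of all 8 members were equal. A percentile is a signal's rank within its own list. Peaks of the replicates were matched within 200 bp. The covering step was tested on simulated data. Wider-list genes were named by signal, up to the 12 highest. The members, lists and motifs were chosen with earlier results of these data known. Of the wider list, 4 names (Hsc70Cb, Hop, l(2)tid and Hsrw) were not in the annotation and were left out; Hsc70Cb, l(2)tid and Hsrw are on it under other names. No statistical test was made. Pooled ranked values come from the series-wide ranked list that holds every peak of the pooled thresholded list; a second series-wide ranked list was not used here.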

Additional observations from a re-analysis of the deposited data

How the results depend on the processing

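Without the 1 kb on either side of the genes, the pooled list covered 2 of the 8 members, 1 of the 3 Hsc70 genes and 3 genes of the wider list, and 1 member was covered in both replicates. Counting only genes whose own start was the nearest protein-coding TSS left 7 of the wider list. Taking 1 replicate's list at a time gave 3 to 3 members and 9 to 13 genes of the wider list. With q-values under 0.05 only, 3 members and 11 wider-list genes were covered. Adding back the left-out ranked peaks past the score, an alternative chosen after seeing the data, gave 4 members and 16 wider-list genes. The added ones were Hsp70Ba and lncRNA:Hsromega. Of these changed rules, the share of all protein-coding genes was worked out only for the replicate lists, at 20.9% and 22.6%. The other counts of covered genes have no such share beside them, so whether they moved with the background was not tested. Percentiles depend on the list: Hsc70-4 stood at 51.6 to 69.6 and Hsc70-5 at 55.0 to 76.6 over the lists used. No member summit had a heat shock element of 3 units within 50 bp. No paired analysis was possible because the labels give a single group. Depth is unknown, so a gene without a thresholded peak was not shown to lack signal.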

Other observations

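The heat shock RNA gene lncRNA:Hsromega, on the wider list, resembled Hsp70Ba in that its peak was absent from every thresholded list. Its ranked pooled summit lay 168 bp downstream of its TSS, with a signal of 136.4 and a score of 1000. Both replicates recorded it past the score, with ranked signals of 79.2 in replicate 1 and 69.8 in replicate 2, above those of Hsc70-4 in both replicates. Over the members and the wider list these were the 2 ranked pooled peaks that passed the score and were left out. The reason was not tested.

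The deposited summit of the Hsc70-5 peak fell 1 bp past the end of its interval, as it did in 2 of the 4565 pooled peaks on the arms.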
